A study of Homo sapiens with 40 samples.

Results

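The mRNAs described here encode 10 proteins that act at the cap-binding step of translation: the scaffolds eIF4G1, eIF4G2 and eIF4G3, the cap-binding proteins eIF4E and eIF4E2, the eIF4E-binding proteins 4E-BP1 and 4E-BP2 (EIF4EBP1 and EIF4EBP2), the eIF4A cofactors eIF4B and eIF4H, and the eIF4A inhibitor PDCD4. They were taken by gene symbol and are 10 of the 55765 symbols counted in the series. All 40 RNA-Seq libraries came from HEK293, an established line of human embryonic kidney cells, and fall into 12 groups. In the RIP experiment, RNA recovered with antibodies against endogenous eIF4A1, eIF4A2 or DDX6 (IP) was compared with total RNA of the same procedure, all from cells that received no siRNA (n = 3 per group). In the gradient experiment, cells were given a control siRNA or an siRNA against CNOT1, on which the Ccr4-Not deadenylase complex assembles, and input RNA, pooled subpolysomal fractions and pooled polysomal fractions of sucrose gradients were sequenced (n = 4 per group). The TNRC6 experiment used control siRNA or siRNAs against both TNRC6A and TNRC6B, proteins that link Argonaute to Ccr4-Not (n = 2 per group). The labels number the replicates but do not say that they came from separate cultures, so the tests below measure the spread between these libraries of 1 cell line. HEK293 was not checked against a list of cell type markers.

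As background, eIF4E binds the cap at the 5′ end of an mRNA and is joined by the scaffold eIF4G and the helicase eIF4A in the eIF4F complex, which prepares the mRNA for the ribosome. The 4E-BPs compete with eIF4G for eIF4E and release it when the kinase mTORC1 phosphorylates them. eIF4B and eIF4H stimulate the helicase, and PDCD4 holds eIF4A away from eIF4G until S6 kinase marks it for degradation. Both eIF4G2, also called DAP5, and eIF4E2, also called 4EHP, depart from this scheme: eIF4G2 lacks the part that binds eIF4E, and eIF4E2 binds caps without joining eIF4G and is known for repressing translation.

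Libraries held 15.4 to 46.0 M counts (M, mega). CNOT1 mRNA fell with its siRNA in input RNA, from 628 to 711 CPM (counts per M counts, scaled by TMM factors) to 36.8 to 41.4 CPM. In polysomal RNA the library labelled control siRNA replicate 3 held 28.3 CPM of CNOT1 and the library labelled CNOT1 siRNA replicate 3 held 631 CPM. The other 3 polysomal libraries held 469.9 to 501 CPM with control siRNA and at most 31.6 CPM with CNOT1 siRNA, so these 2 libraries went against their labels. The labels were kept, and fold changes of polysomal RNA are given with all libraries and without these 2. TNRC6A stood at 178 and 189 CPM with control siRNA and 40.5 and 64.7 CPM with TNRC6A/B siRNA, and TNRC6B at 67.6 and 73.1 against 17.7 and 26.3 CPM.

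All 10 mRNAs were counted in every library and passed the filter on low counts in all 3 experiments. CPM per kb of the canonical transcript was used to set levels of different genes beside each other. It takes 1 annotated length per gene, from 827 bases for EIF4EBP1 to 7491 bases for EIF4EBP2. Which transcripts HEK293 cells use was not checked, and the order depends on these lengths. On this scale, in the control input libraries of the gradient experiment, EIF4G2 was the most abundant (415 ± 19.9 CPM per kb, SD, n = 4) and PDCD4 the least (37.1 ± 2.07). Between them, in falling order, came EIF4G1 (323 ± 26.7), EIF4H (251 ± 8.03), EIF4B (232 ± 7.49), EIF4E2 (132 ± 6.77), EIF4E (69.2 ± 4.40), EIF4EBP1 (63.0 ± 6.47), EIF4G3 (53.3 ± 1.12) and EIF4EBP2 (46.0 ± 2.43). Of the neighbours in this order, only EIF4E and EIF4EBP1 overlapped between libraries. RIP total RNA gave the same first 5 genes in the same order, and there EIF4G2, EIF4G1 and EIF4H overlapped, as did EIF4E2, EIF4EBP1 and EIF4E, and PDCD4 and EIF4EBP2.

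To ask how much of each mRNA was recovered with each helicase, the RNA of each IP was compared with that of RIP total RNA. Fold changes (log2) were fitted with edgeR over all 17474 genes that passed the filter, and genes with a Benjamini-Hochberg FDR below 0.05 are referred to as called. In the eIF4A1 IP, 1 of the 10 mRNAs was called higher and 5 lower than in total RNA (26.1% and 26.5% of all genes tested). In the eIF4A2 IP, 2 were called higher and 5 lower (24.5% and 25.8% of all genes). In the DDX6 IP, 3 were called higher and 2 lower (22.7% and 23.3% of all genes). The median log2 fold change of the 10 was -0.58 in the eIF4A1 IP, -0.58 in the eIF4A2 IP and 0.06 in the DDX6 IP, beside 0.04, 0.01 and 0.01 over all genes. CPM is a share of each library, so a lower value means a smaller share of the recovered RNA, and in bulk RNA a change in some cells and a smaller change in all cells cannot be told apart. The 3 IPs were divided by the same total RNA libraries. The 40 libraries include no control IP with IgG, so recovery with a helicase and background shared by the IPs cannot be told apart.

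**Figure D1:**
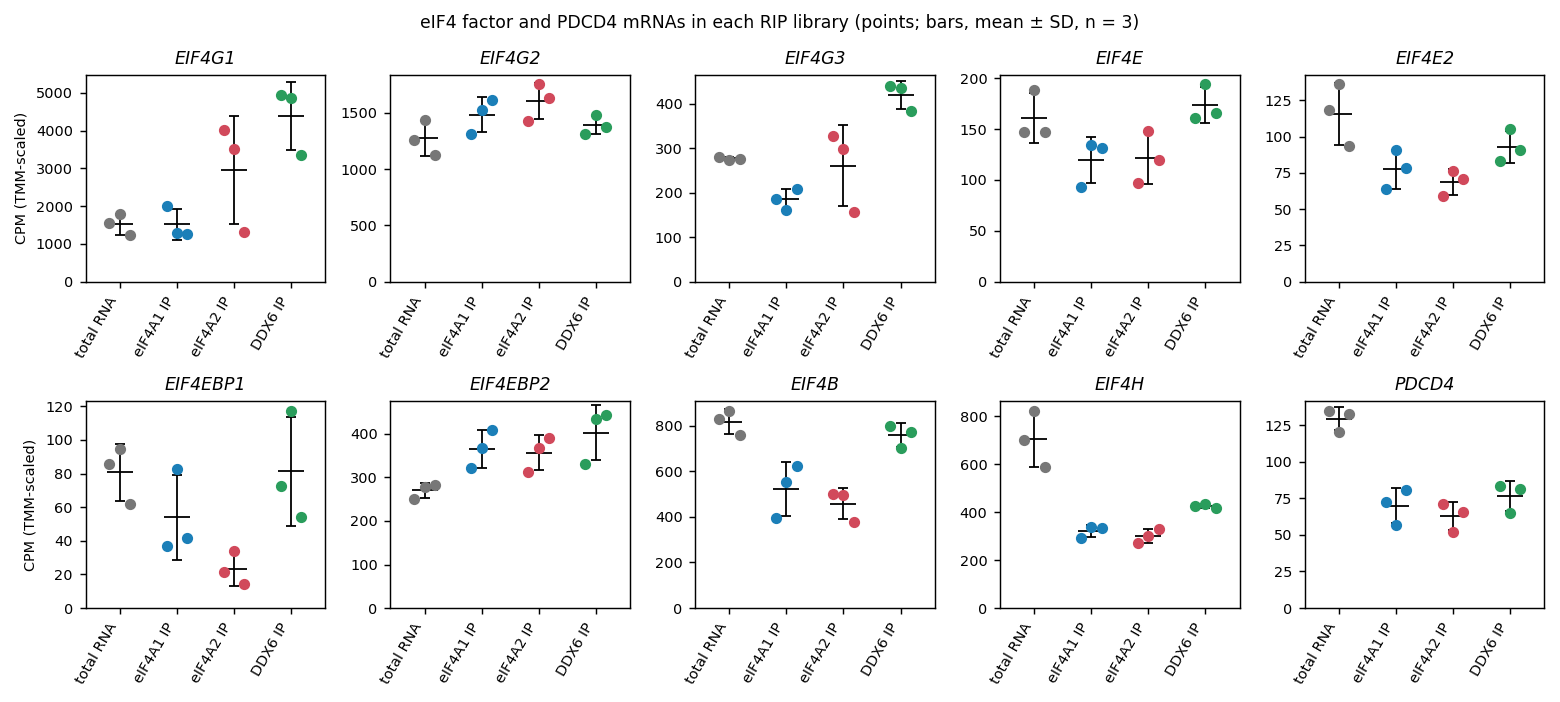
CPM (y axis, linear, from 0) of the 10 mRNAs in the 4 RIP groups (x axis); each point is 1 library, and bars are mean ± SD (n = 3). The mean of EIF4G1 is highest in the DDX6 IP, EIF4H and PDCD4 lie below total RNA in all 9 IP libraries, and EIF4EBP2 lies above it in all 9.

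Among the scaffolds, EIF4G1 (chromosome 3, 184032283 to 184053146, GRCh37) separated the IPs most. Its level was 1559, 1782 and 1229.7 CPM in the 3 total RNA libraries, 1994, 1302 and 1262 CPM in the eIF4A1 IP, 4019, 3516 and 1325 CPM in the eIF4A2 IP and 4946, 4849 and 3361 CPM in the DDX6 IP. All 3 DDX6 IP libraries lay above all total RNA libraries, the eIF4A1 IP overlapped total RNA, and replicate 3 of the eIF4A2 IP stayed within the range of total RNA while the other 2 were above it. The log2 fold change was 1.53 (SE 0.35, FDR 0.003) in the DDX6 IP and 0.96 (SE 0.34, FDR 0.032) in the eIF4A2 IP, and in the eIF4A1 IP the FDR was 0.992. The call in the eIF4A2 IP was lost without total RNA replicate 1 or 3 (FDR 0.0739 and 0.108) or eIF4A2 IP replicate 1 or 2 (FDR 0.145 and 0.1).

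EIF4G3 (chromosome 1, 21132785 to 21503778), the less abundant paralog, stood at 281, 275 and 276 CPM in total RNA, 185, 162 and 208 CPM in the eIF4A1 IP, 327, 297 and 156 CPM in the eIF4A2 IP and 439, 436 and 384 CPM in the DDX6 IP. Every eIF4A1 IP library was below and every DDX6 IP library above total RNA, with log2 fold changes of -0.58 (SE 0.22, FDR 0.038) and 0.60 (SE 0.22, FDR 0.0371). Both calls were lost when single libraries were left out: in the eIF4A1 IP without any 1 of the total RNA libraries or without eIF4A1 IP replicate 1 or 2 (FDR 0.0726 to 0.126), and in the DDX6 IP without any 1 of the total RNA libraries or without DDX6 IP replicate 1 or 2 (FDR 0.0825 to 0.0858). In the eIF4A2 IP its replicate 3 was again the low one, and the difference was not called (log2 -0.09 at FDR 0.748). EIF4G2 (chromosome 11, 10818597 to 10830487) ranged from 1127 to 1434 CPM in total RNA and from 1309 to 1751 CPM over the 9 IP libraries, and passed in no IP (log2 0.22 at FDR 0.251, 0.34 at FDR 0.0876 and 0.13 at FDR 0.523 in the eIF4A1, eIF4A2 and DDX6 IPs). It was called higher in the eIF4A2 IP with the replicate number as a block (log2 0.33 at FDR 0.0327) and by DESeq2 (log2 0.33 at FDR 0.0408).

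EIF4E (chromosome 4, 99800427 to 99850284), the cap-binding subunit of eIF4F, stood at 147, 189 and 147 CPM in total RNA, 93.1, 135 and 131 CPM in the eIF4A1 IP, 96.9, 148 and 119 CPM in the eIF4A2 IP and 161, 194 and 166 CPM in the DDX6 IP. The eIF4A1 IP libraries all lay below total RNA, replicate 2 of the eIF4A2 IP overlapped it, and the difference was called in neither (log2 -0.43 at FDR 0.0713 and -0.40 at FDR 0.0901). Same-numbered RIP libraries deviated from their group means together, and with the number as a block EIF4E was called lower in the eIF4A1 and eIF4A2 IPs (log2 -0.43 at FDR 0.00399 and -0.41 at FDR 0.0055). EIF4E2 (chromosome 2, 233415369 to 233448354) fell from 118, 136 and 93.3 CPM in total RNA to 63.8, 90.4 and 78.3 CPM in the eIF4A1 IP and 58.8, 76.2 and 70.7 CPM in the eIF4A2 IP. No library of these 2 IPs reached the lowest total RNA library, and the log2 fold changes were -0.58 (SE 0.18, FDR 0.014) and -0.76 (SE 0.18, FDR 0.003). Without total RNA replicate 2 or eIF4A1 IP replicate 1 the call in the eIF4A1 IP was lost (log2 -0.45 in both cases, FDR 0.0738 and 0.0655). In the DDX6 IP, EIF4E2 stood at 83.2, 105 and 90.9 CPM, overlapped total RNA and was called lower with the block (log2 -0.32 at FDR 0.0337) and not without it (log2 -0.32 at FDR 0.158).

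In the eIF4A2 IP the 2 eIF4E-binding proteins went opposite ways. EIF4EBP2 (chromosome 10, 72163901 to 72188374) stood at 251, 277 and 284 CPM in total RNA, 321, 368 and 409 CPM in the eIF4A1 IP, 313, 368 and 391 CPM in the eIF4A2 IP and 331, 435 and 443 CPM in the DDX6 IP. It was the only 1 of the 10 called higher in all 3 IPs, with log2 fold changes of 0.43 (SE 0.16, FDR 0.0316), 0.40 (SE 0.16, FDR 0.0461) and 0.57 (SE 0.16, FDR 0.00892). The call in the eIF4A1 IP was lost without total RNA replicate 1 or 2 or eIF4A1 IP replicate 2 or 3 (FDR 0.0623 to 0.109). That in the eIF4A2 IP was lost without any 1 total RNA library or eIF4A2 IP replicate 2 or 3 (FDR 0.0653 to 0.149) and with no filter on low counts (FDR 0.106). EIF4EBP1 (chromosome 8, 37888052 to 37917883) varied more between libraries, at 86, 94.4 and 61.6 CPM in total RNA, 37.1, 82.9 and 41.9 CPM in the eIF4A1 IP, 21.7, 33.9 and 14.1 CPM in the eIF4A2 IP and 72.9, 117 and 54.3 CPM in the DDX6 IP. In each of these groups replicate 2 was the highest. The eIF4A2 IP lay wholly below total RNA and gave the lowest fold change of any of the 10 mRNAs in these 3 comparisons, log2 -1.80 (SE 0.38, FDR 0.00138). The eIF4A1 IP was not called (log2 -0.58 at FDR 0.197) except with the block (log2 -0.65 at FDR 0.00323), without eIF4A1 IP replicate 2 (log2 -1.04, FDR 0.037) or with no filter on low counts (log2 -0.55 at FDR 0.0131), and the DDX6 IP gave a log2 fold change of 0.01 (FDR 0.977).

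Both helicase cofactors were lower in the eIF4A1 and eIF4A2 IPs. EIF4H (chromosome 7, 73588561 to 73611452) stood at 700.3, 823 and 589.9 CPM in total RNA and at 293, 339 and 335 CPM in the eIF4A1 IP, 273, 302 and 331 CPM in the eIF4A2 IP and 427, 432 and 419 CPM in the DDX6 IP. All 9 IP libraries lay below all 3 total RNA libraries, with log2 fold changes of -1.13 (SE 0.15, FDR 4.68e-05), -1.22 (SE 0.15, FDR 2.42e-05) and -0.73 (SE 0.15, FDR 0.00155). EIF4B (chromosome 12, 53400066 to 53435999) fell from 830.1, 865 and 758 CPM in total RNA to 393, 551 and 621 CPM in the eIF4A1 IP and 498, 494 and 378 CPM in the eIF4A2 IP, log2 -0.65 (SE 0.18, FDR 0.00814) and -0.84 (SE 0.18, FDR 0.00159). In the DDX6 IP it stood at 799.8, 701 and 773 CPM, which overlapped total RNA (log2 -0.11 at FDR 0.638). PDCD4 (chromosome 10, 112631553 to 112659764), the inhibitor, stood at 135, 120.5 and 133 CPM in total RNA and at 72.2, 56.8 and 80.5 CPM in the eIF4A1 IP, 71.3, 52.3 and 65.4 CPM in the eIF4A2 IP and 83.6, 64.6 and 81.6 CPM in the DDX6 IP. As for EIF4H, no IP library reached the total RNA libraries, with log2 fold changes of -0.89 (SE 0.17, FDR 0.000603), -1.04 (SE 0.17, FDR 0.000195) and -0.76 (SE 0.17, FDR 0.00239). The calls for EIF4H and PDCD4 held in all 3 IPs under every alternative run. Exons of PDCD4 share 1277 bases with exons of BBIP1 on the opposite strand, and exons of EIF4G2 share 134 bases with CTR9 on the opposite strand, and the strand option of the counting was not given in the sources used here.

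**Figure D2:**
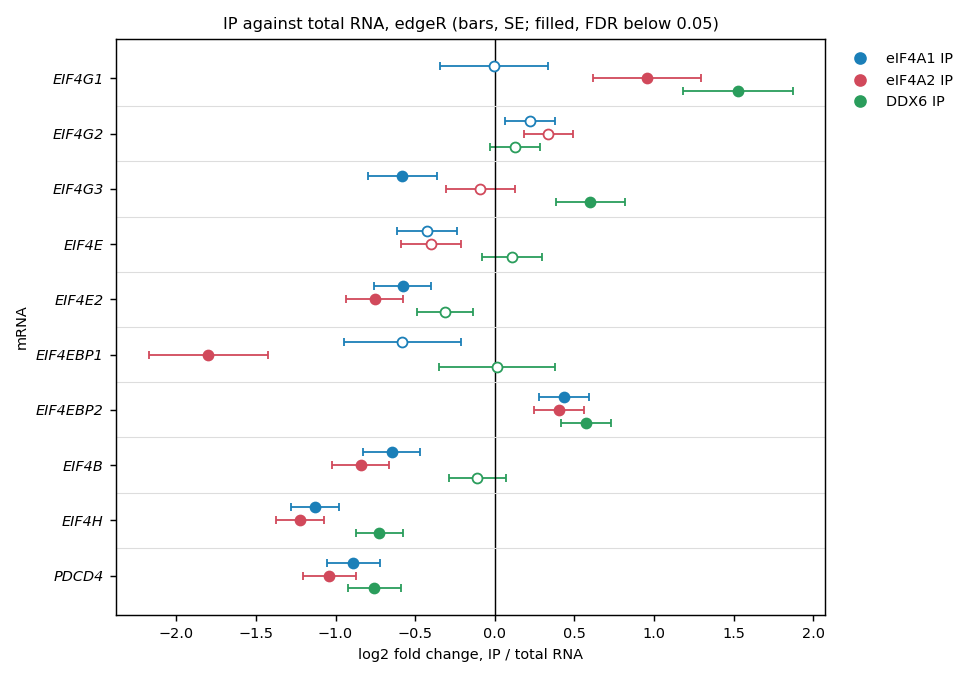
Fitted log2 fold change (x axis) of each of the 10 mRNAs (y axis) in the eIF4A1, eIF4A2 and DDX6 IPs against total RNA; bars are SE and filled points have an FDR below 0.05. The 3 IPs lie together for EIF4EBP2, EIF4H and PDCD4 and spread apart for EIF4G1, EIF4G3 and EIF4EBP1.

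A call in 1 IP and not in another does not show a difference, so the IPs were also compared with each other. Between the eIF4A2 and eIF4A1 IPs none of the 10 was called by edgeR with the low-count filter (1.06% of all genes were), and DESeq2 called EIF4EBP1 (log2 -1.20 at FDR 0.0359). With no filter on low counts edgeR called EIF4G1 (log2 0.93 at FDR 0.00122) and EIF4EBP1 (log2 -1.25 at FDR 2.17e-08). With the replicate block 2 were called (15.8% of all genes): EIF4G1 was higher in the eIF4A2 IP (log2 0.87 at FDR 0.0236, against 0.96 at FDR 0.188 without the block) and EIF4EBP1 was lower (log2 -1.22 at FDR 0.00127, against -1.22 at FDR 0.138). Without eIF4A2 IP replicate 3, the library that was low for EIF4G1, the difference in EIF4G1 was called without the block too (log2 1.31, FDR 0.0465). For EIF4EBP1 every eIF4A2 IP library lay below every eIF4A1 IP library.

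Of the 10, 4 were called between the eIF4A2 and DDX6 IPs, all lower in the eIF4A2 IP (11.3% of all genes were called lower). These were EIF4EBP1 (log2 -1.81 at FDR 0.00652), EIF4B (-0.73 at FDR 0.0139), EIF4G3 (-0.69 at FDR 0.0393) and EIF4H (-0.50 at FDR 0.0323). Both the call of EIF4G3 and that of EIF4H were lost when single libraries were left out. For EIF4G3 this held without eIF4A2 IP replicate 3 or any 1 DDX6 IP library (FDR 0.0565 to 0.106) and with only these 2 groups fitted (FDR 0.1). For EIF4H it held without eIF4A2 IP replicate 1 or 2 or any 1 DDX6 IP library (FDR 0.0639 to 0.125) and with no filter on low counts (FDR 0.0556). EIF4E was added by DESeq2 (log2 -0.51 at FDR 0.0474). With no filter on low counts EIF4E (log2 -0.54 at FDR 0.0363) and EIF4G1 (log2 -0.60 at FDR 0.0341) were added. EIF4B was just lost without eIF4A2 IP replicate 3 (log2 -0.61, FDR 0.0508). With the block 8 of the 10 were called, all lower in the eIF4A2 IP (22.0% of all genes were called lower), EIF4E, EIF4E2, EIF4G1 and PDCD4 being added at log2 -0.53, -0.44, -0.66 and -0.28.

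Between the DDX6 and eIF4A1 IPs none of the 10 was called by edgeR with the low-count filter (0.0916% of all genes were). With no filter on low counts EIF4G1 (log2 1.53 at FDR 3.84e-09) and EIF4G3 (log2 1.18 at FDR 2.61e-06) were called higher in the DDX6 IP. DESeq2 called EIF4G1 and EIF4G3 (log2 1.54 at FDR 0.00098 and 1.19 at FDR 0.000128). With the block 4 were called higher in the DDX6 IP (6.08% of all genes were): EIF4G1 (log2 1.52 at FDR 0.00623), EIF4G3 (1.17 at FDR 0.00827), EIF4EBP1 (0.60 at FDR 0.0353) and EIF4E (0.55 at FDR 0.0137). The libraries of the 2 IPs did not overlap for EIF4G1, EIF4G3, EIF4E, EIF4B and EIF4H. How often libraries did not overlap over all genes was not counted in any comparison. Every statement here that libraries did not overlap is therefore a description of those libraries only.

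To ask where each mRNA sat in the gradient, polysomal RNA was compared with subpolysomal RNA of the same siRNA. With control siRNA all 10 mRNAs were called (71.7% of the 16776 genes tested were called in either direction), 8 higher in polysomal and 2 lower. The shares of all genes called higher and lower are not given here, so the split of 8 and 2 is a description only. The median log2 fold change of the 10 was 0.85, beside -0.02 over all genes. With CNOT1 siRNA 7 were called higher and 1 lower (34.1% and 34.7% of all genes), with a median of 0.69 beside -0.01. Without both polysomal libraries of replicate 3 these counts of members were the same. In either direction, 72.1% and 71.9% of all genes were then called with control and CNOT1 siRNA. The medians of the 10 were 0.88 and 0.66, beside -0.10 and -0.01. RNA amounts per fraction were not measured by the counts, so these fold changes compare shares of 2 libraries and not amounts of RNA in the 2 pools.

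**Figure D3:**
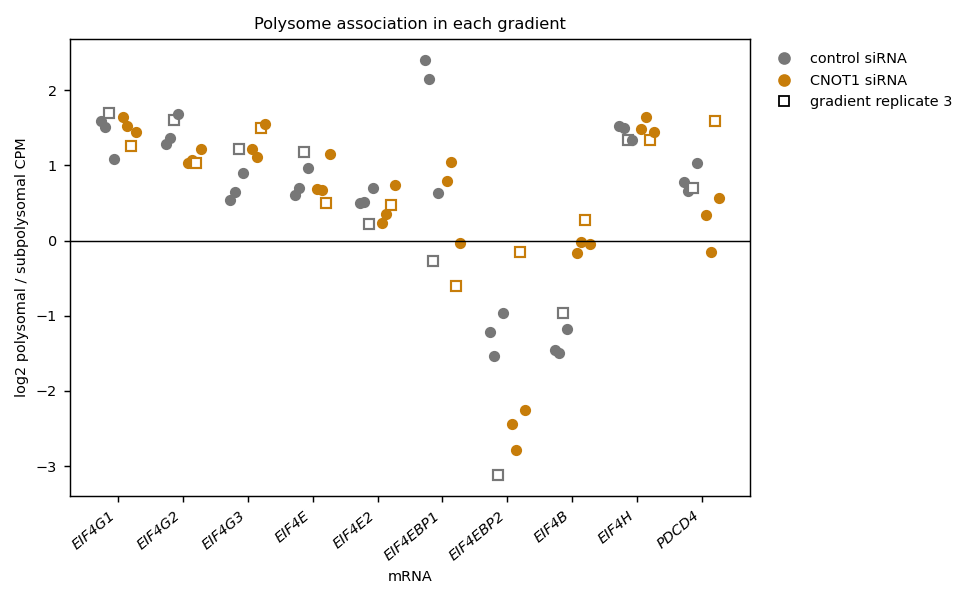
Log2 ratio of polysomal to subpolysomal CPM (y axis, pseudocount 0.5 CPM) of the 10 mRNAs (x axis), taken between same-numbered libraries; each point is 1 ratio with control or CNOT1 siRNA (n = 4 each), and open squares are replicate 3. EIF4EBP2 and EIF4B lie below 0 with control siRNA, and with CNOT1 siRNA EIF4B lies between -0.17 and 0.27, the latter in replicate 3.

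With control siRNA the scaffolds EIF4G1 and EIF4G2 and the cofactor EIF4H had the highest fitted polysomal to subpolysomal values. EIF4G1 held 379 to 535 CPM in subpolysomal and 1063 to 1739 CPM in polysomal RNA, EIF4G2 613 to 845 and 1859 to 2182 CPM, and EIF4H 307 to 332 and 792 to 938 CPM. The polysomal and subpolysomal libraries did not overlap for these 3 or for any other of the 10 except EIF4EBP1. How often this held over all genes was not counted. The log2 fold changes of these 3 were 1.49 (SE 0.14, FDR 6.88e-10), 1.48 (SE 0.10, FDR 3.92e-12) and 1.43 (SE 0.08, FDR 2.19e-13). Without both polysomal libraries of replicate 3 they were 1.32, 1.52 and 1.48, so their order among themselves changed. The third scaffold, EIF4G3, stood at 0.85 (SE 0.12, FDR 7.98e-07) with all libraries and 0.71 (FDR 1.86e-07) without these 2. The cap-binding proteins had log2 fold changes of 0.85 (SE 0.13, FDR 2.03e-06) for EIF4E and 0.49 (SE 0.09, FDR 5.5e-05) for EIF4E2, or 0.86 and 0.58 without these 2 libraries. PDCD4 held 62.5, 76.8, 51.1 and 56.5 CPM in subpolysomal and 107, 122, 83.3 and 116 CPM in polysomal RNA, log2 0.80 (SE 0.19, FDR 0.000639) with all libraries and 0.91 (FDR 1.88e-06) without these 2. EIF4EBP1 was called higher in polysomal RNA (log2 1.05 at FDR 0.00713, or 1.19 at FDR 0.00517 without these 2 libraries), although its subpolysomal libraries ranged from 18.4 to 68.5 CPM and overlapped the polysomal ones (56.6 to 99 CPM). Its log2 ratio in the 4 control gradients ran from the highest single values of the 10 to below 0 (2.40, 2.14, -0.27 and 0.63), and with only these 2 groups fitted its FDR was 0.0539. The ratio below 0 was that of replicate 3, whose polysomal library (56.6 CPM) went against its label. Its subpolysomal library was also the highest of the 4 with control siRNA (68.5 CPM).

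With CNOT1 siRNA the order was EIF4H, EIF4G1, EIF4G3 and EIF4G2, at log2 1.48, 1.47, 1.35 and 1.08 with all libraries and 1.51, 1.497, 1.27 and 1.10 without both polysomal libraries of replicate 3. EIF4EBP2 was again lower in polysomal RNA (log2 -1.78 at FDR 0.000164, or -2.35 at FDR 3.53e-10 without these 2 libraries), and EIF4B and EIF4EBP1 were not called in either fit (EIF4EBP1 at log2 0.15 at FDR 0.709 and 0.14 at FDR 0.746).

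EIF4B and EIF4EBP2 were the 2 mRNAs called lower in polysomal than in subpolysomal RNA with control siRNA. EIF4B held 1765, 2038, 1435 and 1694 CPM in subpolysomal and 644, 719, 736 and 746 CPM in polysomal RNA with control siRNA, with no overlap, log2 -1.28 (SE 0.10, FDR 5.19e-11), or -1.29 without both polysomal libraries of replicate 3. EIF4EBP2 held 739.5, 992, 598 and 633 CPM in subpolysomal and 318, 340.4, 68.4 and 325 CPM in polysomal RNA. The polysomal library labelled control siRNA replicate 3, 1 of the 2 that went against their labels, was the low one. The log2 fold change of EIF4EBP2 was -1.49 (SE 0.37, FDR 0.000805) with it and -1.16 (FDR 7.42e-06) without both polysomal libraries of replicate 3.

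CNOT1 siRNA changed this order for EIF4B. Its subpolysomal level fell from 1765, 2038, 1435 and 1694 CPM to 715, 688, 679 and 669 CPM, a log2 fold change of -1.33 (SE 0.10, FDR 1.92e-08), with every CNOT1 siRNA library below every control library. In polysomal RNA it held 644, 719, 736 and 746 CPM with control siRNA and 636, 679, 819.7 and 647 CPM with CNOT1 siRNA, which overlapped (log2 -0.03 at FDR 0.926, or -0.10 at FDR 0.449 without both polysomal libraries of replicate 3). Input RNA gave 877, 861, 914 and 921 CPM and 725, 740.2, 717 and 681 CPM, with no overlap, log2 -0.32 (SE 0.10, FDR 0.0222). The call in input RNA was lost without control input replicate 3 or 4 or CNOT1 siRNA input replicate 3 or 4 (FDR 0.0505 to 0.0595) and with no filter on low counts (log2 -0.35 at FDR 0.0626). In the fit without both polysomal libraries of replicate 3 the input value of EIF4B was -0.32 (SE 0.09, FDR 0.00475). The polysomal to subpolysomal log2 ratio of EIF4B was -1.45, -1.50, -0.96 and -1.18 in the 4 control gradients and -0.17, -0.02, 0.27 and -0.05 in the 4 CNOT1 siRNA gradients. The ratios of -0.96 and 0.27 are those of replicate 3, whose polysomal libraries went against their labels. Tested as an interaction, the CNOT1 siRNA effect in polysomal minus that in subpolysomal RNA was 1.30 (SE 0.14, FDR 2.99e-05). EIF4B was the only 1 of the 10 called in this test (5.66% of all genes were called), and its value with both polysomal libraries of replicate 3 left out was 1.23 (FDR 7.59e-06).

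The EIF4B start is shown because mRNAs that begin with C and a run of pyrimidines, the TOP mRNAs of ribosomal proteins and some translation factors, are the classic case of mRNAs kept outside polysomes. These 25 bases were taken from RefSeq promoters (GRCh38.p14), with 5 bases before the annotated start and the rest from the start on; 9 of the 10 genes had an entry. Capitals mark a C at the start followed by pyrimidines only. EIF4B lies at chr12:53006451-53006475 on the + strand, and the other 4 of the 10 genes that had a single entry follow for comparison.
EIF4B: cgggtCTTTTgcgttctctttccct
EIF4EBP2: cgcccgcttccggtcgtcgtcgtcg
PDCD4: gggccagagactctccgaggcggcg
EIF4H: tcaccctggttcctctcggagcgga
EIF4E: cggttgtgcgatcagatcgatctaa
EIF4B was the only gene of the 9 with a C and at least 4 further pyrimidines exactly at the annotated start, which 4.07% of 35116 promoter entries had. Such a run began within 4 bases of the start in 15.3% of entries, among them those of EIF4EBP2, 1 entry of EIF4G1, 1 of EIF4G2 and 1 of EIF4E2. These letters describe the annotated start and not the start used in HEK293 cells. Genes with the run exactly at the start in any promoter entry were also taken as a list. It was not limited to known TOP mRNAs, which were not compared as a set. The median log2 fold change of the listed genes between polysomal and subpolysomal RNA with control siRNA was 0.07, beside -0.02 over all genes.

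EIF4EBP2 fell most in input RNA, from 353, 360.2, 319 and 345 CPM with control siRNA to 152, 181, 119.6 and 149 CPM with CNOT1 siRNA, with no overlap, log2 -1.20 (SE 0.36, FDR 0.0191). Of the 10 mRNAs, 3 were called in input RNA, all lower (15.6% of all genes were called lower). Without CNOT1 siRNA input replicate 3 the call of EIF4EBP2 was lost (log2 -1.10, FDR 0.0579), and in the fit without both polysomal libraries of replicate 3, the value was -1.20 (SE 0.17, FDR 1.06e-05). In subpolysomal RNA it held 739.5, 992, 598 and 633 CPM and 551, 753, 352 and 509 CPM, which overlapped, log2 -0.45 (FDR 0.348), or -0.45 (FDR 0.035) without both polysomal libraries of replicate 3. In polysomal RNA it held 318, 340.4, 68.4 and 325 CPM with control siRNA and 101, 109, 317 and 106 CPM with CNOT1 siRNA. In each of these groups replicate 3 stood near the other 3 libraries of the opposite label. The polysomal log2 fold change was -0.73 (FDR 0.663) with all libraries and -1.64 (SE 0.20, FDR 3.25e-06) without both polysomal libraries of replicate 3, and the interaction was -0.28 (FDR 0.797) and -1.19 (FDR 0.00262).

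PDCD4 was the third mRNA lower in input RNA, from 126, 120.1, 136 and 133 CPM to 78.3, 74.3, 79.4 and 77.3 CPM, with no overlap and a narrow spread in both groups, log2 -0.74 (SE 0.19, FDR 0.00926). In the fit without both polysomal libraries of replicate 3 the input value was -0.74 (SE 0.12, FDR 6.19e-05). In subpolysomal RNA the levels overlapped (62.5, 76.8, 51.1 and 56.5 against 55.7, 78.3, 47.7 and 50.8 CPM, log2 -0.09 at FDR 0.762). In polysomal RNA they were 107, 122, 83.3 and 116 against 70.7, 70.4, 144 and 75.1 CPM, and CNOT1 siRNA replicate 3 stood above every other library. The polysomal log2 fold change was -0.25 (FDR 0.691) with all libraries and -0.68 (SE 0.14, FDR 0.000956) without both polysomal libraries of replicate 3, and the interaction was -0.16 (FDR 0.772) and -0.59 (FDR 0.0326). Within CNOT1 siRNA cells PDCD4 was higher in polysomal than subpolysomal RNA (log2 0.63 at FDR 0.00502), or 0.32 (FDR 0.036) without both polysomal libraries of replicate 3, and with CNOT1 siRNA polysomal replicate 3 alone left out it was not called (log2 0.32, FDR 0.0611).

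PDCD4 is a known target of the microRNA miR-21, and its site is shown because the TNRC6 and Ccr4-Not proteins act downstream of microRNAs. The mature sequence is from RefSeq, with the seed, bases 2 to 8, in capitals. The PDCD4 bases shown lie on GRCh37 at chr10:112658074-112658095 on the + strand. Capitals mark the bases complementary to the seed, which begin at base 242 of a 3′UTR of 1918 bases.
miR-21-5p: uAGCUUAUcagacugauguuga
PDCD4 site: agtggaatattctaATAAGCTa
An A stands opposite the first base of the microRNA. Binding of the microRNA was not measured in these libraries.

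In polysomal RNA with all libraries, no gene of the 16776 was called between CNOT1 and control siRNA by edgeR (0.0%), none of the 10 had an unadjusted p below 0.05, and DESeq2 called none of the 10. Over all genes 433 higher and 690 lower had an unadjusted p below 0.05. Without both polysomal libraries of replicate 3, 3 of the 10 were called (31.7% of all genes): EIF4EBP2 and PDCD4 lower, as given, and EIF4G1 higher (log2 0.34 at FDR 0.034). The 3 polysomal libraries per group left for EIF4G1 ranged from 1063 to 1244 CPM with control siRNA and from 1322 to 1515 CPM with CNOT1 siRNA. The library labelled control siRNA replicate 3 held 1739 CPM, the highest of the 8. In the same fit 5 of the 10 were called in the interaction (17.5% of all genes). The value was above 0 for EIF4B and EIF4G3 (0.56 at FDR 0.00316) and below 0 for EIF4EBP2, PDCD4 and EIF4G2 (-0.42 at FDR 0.0456). In polysomal RNA itself EIF4B, EIF4G3 and EIF4G2 were not called in this fit (log2 -0.10, 0.16 and -0.06). With all libraries EIF4G1 stood at log2 0.14 (FDR 0.737) in polysomal RNA, and the interaction of EIF4G3 and EIF4G2 at 0.50 (FDR 0.0753) and -0.39 (FDR 0.0978). With the replicate block in all libraries the interaction was called for EIF4B, EIF4G2 and EIF4G3 (7.14% of all genes), and DESeq2 called EIF4G2 beside EIF4B (log2 -0.43 at FDR 0.0363). Same-numbered libraries did not pair in comparisons with polysomal RNA (correlations from -0.56 to 0.19). Both of these fits also hold the polysomal libraries of replicate 3. So does the edgeR fit with no filter on low counts. It called EIF4EBP2 lower in polysomal RNA (log2 -0.79 at FDR 0.0334) and added EIF4EBP1 in the interaction (-0.99 at FDR 0.0142).

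**Figure D4:**
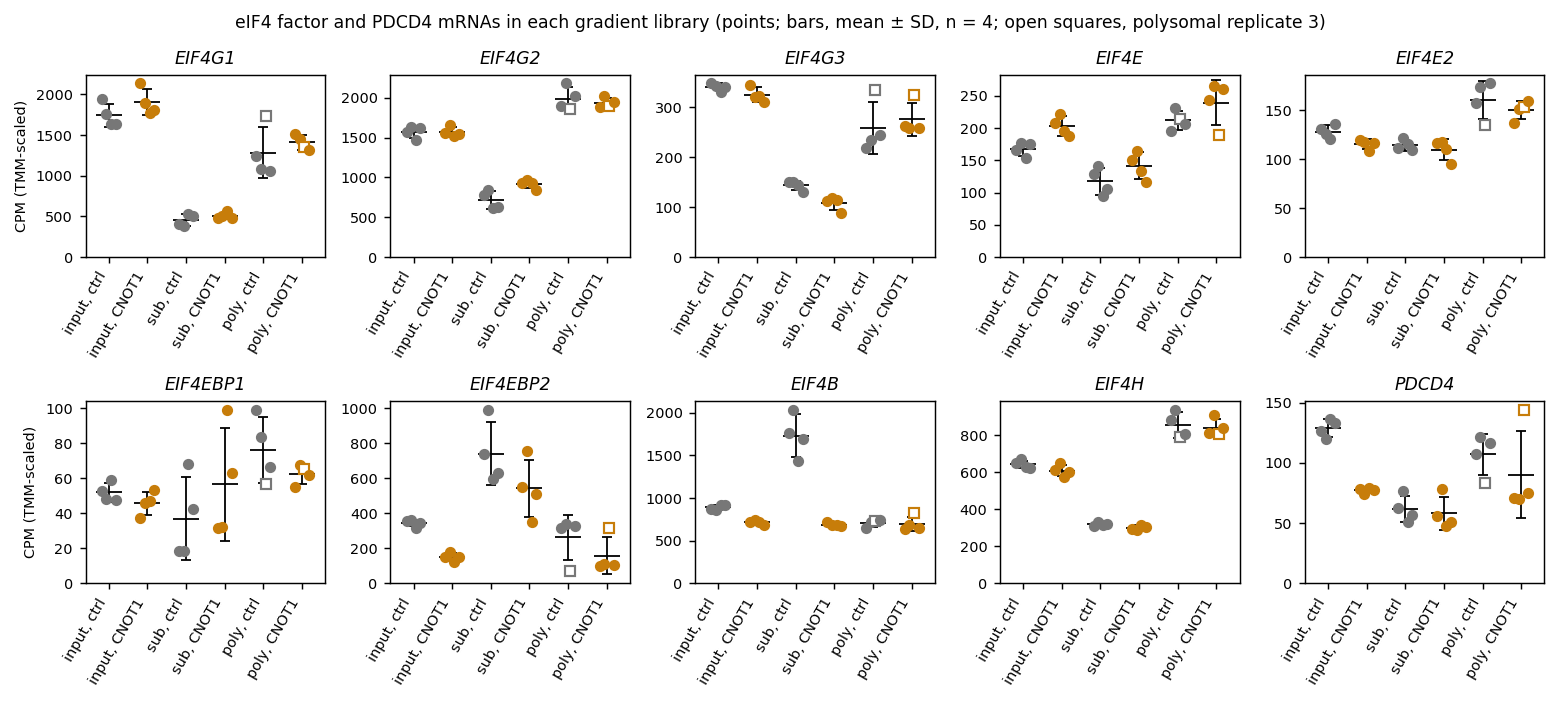
CPM (y axis, linear, from 0) of the 10 mRNAs in input, subpolysomal (sub) and polysomal (poly) RNA with control (ctrl) or CNOT1 siRNA (x axis); each point is 1 library, bars are mean ± SD (n = 4), and open squares are the polysomal libraries of replicate 3. EIF4B is high in subpolysomal control RNA alone, and EIF4EBP2 and PDCD4 are lower in input RNA with CNOT1 siRNA.

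In subpolysomal RNA, 3 of the 10 were called between the siRNAs, 1 higher and 2 lower (13.0% and 19.1% of all genes), namely EIF4B and 2 scaffolds that moved in opposite directions. EIF4G2 rose from 777, 845, 613 and 626 CPM to 924, 964, 929 and 839 CPM, log2 0.35 (SE 0.10, FDR 0.00886), with 1 control library within the CNOT1 siRNA range. EIF4G3 fell from 150.4, 149.7, 144 and 129.9 CPM to 112, 119, 114 and 87.5 CPM, log2 -0.41 (SE 0.12, FDR 0.0113), with no overlap. Without CNOT1 siRNA subpolysomal replicate 4, its lowest library, EIF4G3 was not called (log2 -0.32, FDR 0.0518). In the fit without both polysomal libraries of replicate 3 its subpolysomal value was -0.40 (SE 0.08, FDR 0.000454). Neither scaffold was called in input RNA (log2 0.00 and -0.07).

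EIF4E was higher with CNOT1 siRNA in input RNA by value in every library (166, 177, 154 and 175 against 207, 222, 195 and 188 CPM) and did not pass (log2 0.28 at FDR 0.0982). It passed with the replicate block (log2 0.27 at FDR 0.0453), and replicate numbers paired the input libraries, and it passed with only these 2 groups fitted (log2 0.29, FDR 0.000817). In subpolysomal RNA the value was 0.27 (FDR 0.103) without and 0.28 (FDR 0.0404) with the block. EIF4E2 ranged from 120.2 to 135 CPM in control input and from 109 to 119 CPM in CNOT1 siRNA input (log2 -0.15 at FDR 0.228), and was called with only these 2 groups fitted (log2 -0.13, FDR 0.0421). EIF4H differed by log2 -0.08 in input, -0.08 in subpolysomal and -0.03 in polysomal RNA (-0.04 without both polysomal libraries of replicate 3) and passed in none. EIF4EBP1 differed by log2 -0.19 (FDR 0.685), 0.61 (FDR 0.161) and -0.29 (FDR 0.774), the last being -0.44 (FDR 0.414) without both polysomal libraries of replicate 3, and its SE of 0.33 was the largest of the 10 apart from EIF4EBP2. The subpolysomal value was called without control siRNA subpolysomal replicate 3 (log2 1.10, FDR 0.0121) and with no filter on low counts (log2 0.64 at FDR 0.00809). Its subpolysomal libraries followed the replicate number, with 18.4, 18.6, 68.5 and 42.6 CPM for control siRNA replicates 1 to 4 and 31.4, 32.5, 99.4 and 62.9 CPM for CNOT1 siRNA replicates 1 to 4.

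**Figure D5:**
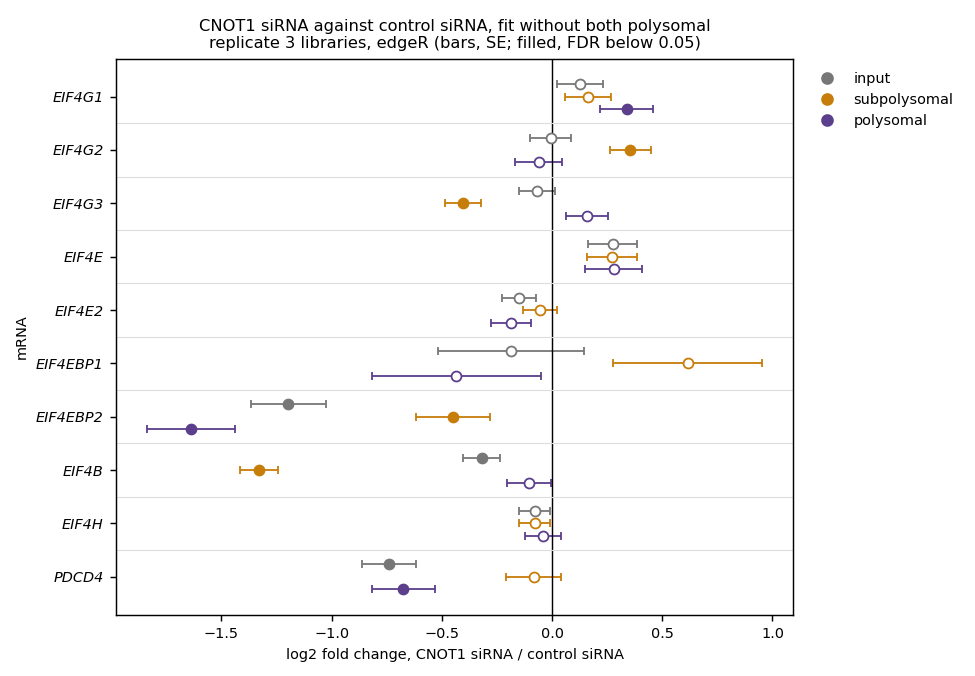
Fitted log2 fold change (x axis) of CNOT1 siRNA against control siRNA for the 10 mRNAs (y axis) in input, subpolysomal and polysomal RNA, in the fit without both polysomal libraries of replicate 3; bars are SE and filled points have an FDR below 0.05. EIF4EBP2 and PDCD4 lie to the left in input and polysomal RNA, and EIF4B lies furthest left in subpolysomal RNA.

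In the TNRC6 experiment none of the 10 mRNAs, and no gene of the 14064 tested (0.0%), was called by edgeR. Unadjusted p below 0.05 was found for 173 genes higher and 116 lower and for none of the 10, DESeq2 called none of the 10, and with the replicate block 5.43% of all genes were called and none of the 10. The log2 fold changes of the 10 ran from -0.10 (EIF4EBP1) to 0.34 (EIF4E2). EIF4E2 held 116 and 106 CPM with control siRNA and 146 and 135 CPM with TNRC6A/B siRNA, without overlap. PDCD4 held 79 and 133 against 107 and 133 CPM (log2 0.17 at FDR 1) and EIF4EBP2 360.4 and 327 against 439 and 329 CPM (log2 0.16 at FDR 1). For EIF4G1 the replicates differed more than the siRNAs, at 2165 and 1007 CPM with control siRNA and 2080.2 and 1254 CPM with TNRC6A/B siRNA. The 2 targeted mRNAs themselves gave log2 fold changes of -1.80 and -1.68 (unadjusted p 0.00182 and 0.00221) and did not pass the adjustment either.

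Other genes of the same step were described as lists by their counts and medians. The 13 subunits of eIF3, which bridges eIF4G and the small ribosomal subunit, were lower in the eIF4A1, eIF4A2 and DDX6 IPs in 12, 11 and 13 cases and higher in none (26.5%, 25.8% and 23.3% of all genes were lower). Their median log2 fold changes were -1.32, -1.44 and -1.08, beside 0.04, 0.01 and 0.01 over all genes, and those of EIF4H in the same IPs were -1.13, -1.22 and -0.73. With CNOT1 siRNA, 8 of the 13 were lower in subpolysomal RNA and none was higher (19.1% and 13.0% of all genes; median -0.45, beside -0.07). In the interaction 6 were higher and none lower (3.26% and 2.4% of all genes), or 7 and none (9.99% and 7.51%) without both polysomal libraries of replicate 3. With all libraries EIF3L, at 1.22 (FDR 8.51e-05), and EIF3F, at 1.08 (FDR 3e-05), came closest to EIF4B. Of 13 genes of mTORC1 and S6 kinase signalling, which controls 4E-BPs, eIF4B and PDCD4, 1 was higher and 2 lower with CNOT1 siRNA in input RNA (13.4% and 15.6% of all genes; median -0.12, beside -0.03), or 2 and 3 (19.6% and 21.1%) with both polysomal libraries of replicate 3 left out. Lowest was RPS6, a ribosomal protein and S6 kinase substrate (log2 -0.74, FDR 0.00673). Of 22 further partners and regulators of eIF4F, 20 passed the filter, and 1 was higher and 3 lower in input RNA (median -0.03, beside -0.03), or 4 and 4 without both polysomal libraries of replicate 3. In the eIF4A1, eIF4A2 and DDX6 IPs 6, 7 and 5 of these were higher and 6, 5 and 5 lower than in total RNA, near the shares of all genes (26.1%, 24.5% and 22.7% higher and 26.5%, 25.8% and 23.3% lower).

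Likeness of pattern was measured as Pearson's r of group-mean log2 CPM over the 12 groups, after subtracting the mean of each experiment, among 8827 genes kept in all 3 fits with a mean of at least 10 CPM in each experiment. All genes share the same libraries, so these values are a description. EIF4B was most like the ribosomal protein genes RPS4X (r = 0.955) and RPL10A (0.949). EIF4EBP2 was most like OGFRL1 (0.991) and TMEM167A (0.982) and EIF4H most like the proteasome subunit gene PSMD7 (0.996) and TSFM (0.996). EIF4G2 was most like CD99L2 (0.994), EIF4E most like HDHD1 (0.98), EIF4EBP1 most like SLIRP (0.963), EIF4E2 most like COX5B (0.955) and EIF4G3 most like UBAP2L (0.949). For EIF4G1 the highest value was the lowest of the 10, 0.927 with SBNO1. Among the 10 themselves, EIF4G1 and EIF4G3 were the most alike (0.921), followed by EIF4E and EIF4H (0.87). EIF4EBP2 ran most against the others, at -0.84 with EIF4E and -0.83 with EIF4G2. Without both polysomal libraries of replicate 3 the named pairs of this kind stood at 0.91 to 0.996. RPS4X, OGFRL1, PSMD7, CD99L2, HDHD1 and COX5B stayed first for their gene, TSFM, SLIRP and UBAP2L ranked 2, SBNO1 3, TMEM167A 5 and RPL10A 13. EIF4EBP2 then stood at -0.81 with EIF4E and -0.73 with EIF4G2, and EIF4G1 and EIF4G3 at 0.918.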

How the data were processed

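Human HEK293 RNA was measured by RNA-Seq in 40 libraries of 12 groups. The deposited files hold counts, 1 whole number per gene symbol and library, which the authors made from poly(A)-selected, stranded libraries by aligning reads to hg19 (TopHat2) and counting them with HTSeq; the strand option was not given in the sources used here. Deposited results of the authors' own edgeR comparisons of the IPs with total RNA (log2 fold changes, mean log2 CPM, likelihood ratios, p-values and FDR) were not used. Groups and replicate numbers came from the sample titles and labels. For RIP total RNA replicate 3 the description gave replicate 2, and the number in the title was used.

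Each experiment had 1 fit in edgeR 4.0.16 (R 4.3.3, limma 3.58.1) with filterByExpr, TMM factors and two-sided quasi-likelihood F-tests on group means. This left 17474 (RIP), 16776 (gradient) and 14064 (TNRC6) genes, and the Benjamini-Hochberg FDR was taken over all of them, with a threshold of 0.05. The tests were also run on simulated counts that had no replicate pairing and no libraries against their labels. The outcome is not reported here. Reads carry no molecular identifiers. Replicate pairs differed by more than counting error, with a chi-square per degree of freedom of at least 5.49, so none was counted as 1 sample. Same-numbered libraries pair where every correlation of their deviations from the group means is above 0.1. This held in the RIP comparisons (0.18 to 0.78) and between siRNAs in input (0.20 to 0.36) and subpolysomal RNA (0.59 to 0.74), so the fit with the replicate block is given where it changes a call. Alternatives were the replicate block, no low-count filter, RLE factors, DESeq2 1.42.0, fits of only the groups compared, leaving out each library, leaving out both polysomal libraries of replicate 3 and, chosen after the data were seen, the last with the block and the likeness of patterns without these 2 libraries. Positions came from GENCODE on GRCh37. The 10 genes were picked by role and symbol, and they and the lists were chosen with earlier results of these data known. All 10 are named in every experiment, and from each list at most the 2 highest and 2 lowest called genes. The genes most like PDCD4 in pattern are not reported here.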

Additional observations from a re-analysis of the deposited data

Results flagged for a closer look

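Of 60 groups of 4 libraries examined for a library far from the others, 4 held one, all in polysomal RNA and all in replicate 3; chance gives about 1 in 20. EIF4EBP2 stood at 68.4 CPM in the library labelled control siRNA polysomal replicate 3. In the library labelled CNOT1 siRNA polysomal replicate 3, EIF4EBP2 stood at 317 CPM, EIF4G3 at 325 CPM and PDCD4 at 144 CPM. These are the 2 libraries whose CNOT1 counts went against their labels, and what set these values was not tested further.

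The CNOT1 siRNA effect differed between polysomal and subpolysomal RNA by the interaction test of edgeR. With all libraries this was the case for EIF4B (1.30 on the log2 scale, FDR 2.99e-05). Without both polysomal libraries of replicate 3 it was the case for EIF4B (1.23), EIF4G3 (0.56), EIF4G2 (-0.42), PDCD4 (-0.59) and EIF4EBP2 (-1.19).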

How the results depend on the processing

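No called value changed sign under any alternative run, and sign changes among values that were not called were not counted. Counts of the 10 mRNAs called stayed within 1.5 times their value in 59 settings other than single left-out libraries and moved further in 17. DESeq2 gave 1 for the eIF4A2 against the eIF4A1 IP, 2 for DDX6 against eIF4A1 and 2 for the interaction. No filter on low counts gave 2, 2 and 2 for these, and 1 for CNOT1 siRNA in polysomal RNA. The replicate block gave 2 for eIF4A2 against eIF4A1, 8 for eIF4A2 against DDX6, 4 for DDX6 against eIF4A1 and 3 for the interaction. Fitting only the groups compared gave 5 in input RNA. Without both polysomal libraries of replicate 3 the count was 3 in polysomal RNA and 5 in the interaction; with the block added it was 4 and 5, and 5 in subpolysomal RNA. The cause of these moves was not tested. In the RIP, input and subpolysomal comparisons the block changed no call other than those given in the report. Between polysomal and subpolysomal RNA and between siRNAs in polysomal RNA the correlations of same-numbered libraries ran from -0.56 to 0.19, and the TNRC6 experiment has only 2 pairs; there the block left the counts at 10, 8, 0 and 0.

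Leaving out 1 library at a time, the IPs against total RNA gave 3 to 5 with eIF4A1, 5 to 6 with eIF4A2 and 4 to 5 with DDX6. Between IPs it gave 0 to 1 for eIF4A2 against eIF4A1, 2 to 4 for eIF4A2 against DDX6 and 0 for DDX6 against eIF4A1. In the gradients it gave 10 and 7 to 8 for polysomal against subpolysomal RNA with control and CNOT1 siRNA, 1 to 3 in input, 3 to 4 in subpolysomal and 0 to 2 in polysomal RNA, 1 to 3 in the interaction, and 0 in the TNRC6 experiment. The libraries whose absence moved a count by over 1.5 times were total RNA replicate 2 (eIF4A1 IP, 3), eIF4A2 IP replicate 3 (1 against eIF4A1, 2 against DDX6), each DDX6 IP library (eIF4A2 against DDX6, 2), CNOT1 siRNA input replicate 3 (1), the polysomal libraries of replicate 3 with control siRNA (1 in polysomal RNA, 3 in the interaction) and CNOT1 siRNA (2 in polysomal RNA), and control siRNA subpolysomal replicate 2 (2 in the interaction). A pseudocount of 0.1 or 2 CPM moved none of the log2 polysomal to subpolysomal ratios beyond their SD.

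With 2 to 4 libraries per group, a result that was not called does not show that values were alike, and the TNRC6 experiment called no gene. Each comparison reads shares of a library and not amounts of RNA.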

Other observations

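Genes whose annotated start has a C followed by at least 4 pyrimidines, as that of EIF4B does, were counted as a list chosen after the value of EIF4B was seen. Of 1404 such symbols 760 were tested in the gradients. With control siRNA 286 were higher and 255 lower in polysomal than in subpolysomal RNA (71.7% of all genes were called in either direction). The median log2 fold change was 0.07, beside -0.02 over all genes. Without both polysomal libraries of replicate 3, 287 were higher and 272 lower (72.1% of all genes; median 0.03 beside -0.10). With CNOT1 siRNA 112 were higher and 190 lower in subpolysomal RNA (13.0% and 19.1% of all genes), with a median log2 fold change of -0.04 beside -0.07 over all genes. In the interaction 59 were higher and 24 lower (3.26% and 2.4% of all genes; median 0.07 beside 0.05), or 112 and 68 without both polysomal libraries of replicate 3 (9.99% and 7.51% of all genes; median 0.12 beside 0.07). EIF4B, at -1.28, -1.33 and 1.30 in these comparisons with all libraries, is 1 member of the list that its own value led to.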
